A study of Mus musculus with 14 samples.

Results

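The genes of 10 pluripotency transcription factors, taken by symbol from the deposited expression table, were followed through mouse embryos cloned by somatic cell nuclear transfer (SCNT) or fertilised in vitro (IVF). These 10 of 22487 gene symbols were Pou5f1, Nanog, Sox2, Klf4, Klf5, Klf17, Esrrb, Sall4, Zfp42 and Tfap2c, each with 1 row. The rule took them by name and not by their values, but the list was chosen with earlier results of these data known. The series held 14 RNA-seq libraries in 7 groups of 2, and compared cloned with fertilised embryos, both stages of each, the donor cells, and cloned embryos given Kdm4d, a demethylase of lysine 9 of histone H3. The groups were SCNT 2-cell embryos overexpressing Kdm4d (25 embryos a library), SCNT 2-cell embryos overexpressing a mutant Kdm4d (25), SCNT 2-cell embryos (40), IVF 2-cell embryos (25), donor cumulus cells, the somatic cells around the oocyte (about 1000 cells), SCNT 1-cell embryos (36) and IVF 1-cell embryos (32 and 31). By the strain labels all SCNT embryos joined a donor nucleus from (C57BL/6J x CAST/EiJ) F1 mice with a B6D2F1 oocyte, whereas IVF embryos came from C57BL/6J eggs and CAST/EiJ sperm. SCNT and IVF embryos therefore differed in the strain of the egg as well as in the source of the nucleus, and these cannot be told apart. The protocol text gives BDF1 females as the source of cumulus cells, a conflict not settled by the sources used here. The mutation in Kdm4d, the way it was overexpressed and the hour of collection are not given there either. Embryos were pooled and nothing says that replicates were separate experiments, so p-values measure only the spread between these libraries.

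POU5F1 (OCT4), SOX2 and NANOG form the core circuit that keeps the cells of the early epiblast and embryonic stem cells undifferentiated. KLF4, KLF5, ESRRB, TFAP2C, SALL4 and ZFP42 (REX1) act around that core in the naive state, and KLF17 is a related zinc-finger factor found in mouse germ cells. In the mouse, transcription of the embryo's own genome starts weakly in the 1-cell embryo and strongly in the 2-cell embryo, while transcripts stored in the egg are degraded. A 2-cell library therefore holds both stored and new RNA.

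Promoter windows of 7 of the 10 genes were found in RefSeq on GRCm38.p6, each running from 250 bases before the annotated start to 50 after it. None was at hand for Klf5, Sall4 and Tfap2c, which carry some of the largest differences below. The 4 windows shown were chosen for the differences of their genes among those with a window. They are written in the gene's own direction, and capitals mark matches to 6 short motifs searched on both strands. These are ATGCAAA (octamer type), GGGCGGG (KLF and SP type), GGGCGTG (KLF type), TAATCC (Obox, Otx and Crx type), AGGTCA (nuclear receptor type) and CATTGT (SOX type). Klf17 (minus strand, chr4:117765617-117765916) is the most abundant KLF transcript of the 1-cell embryo, Klf4 (minus strand, chr4:55532426-55532725) and Zfp42 (minus strand, chr8:43306960-43307259) are higher in every 2-cell group, and Nanog (plus strand, chr6:122707239-122707538) differs between SCNT and IVF 2-cell embryos.
Klf17: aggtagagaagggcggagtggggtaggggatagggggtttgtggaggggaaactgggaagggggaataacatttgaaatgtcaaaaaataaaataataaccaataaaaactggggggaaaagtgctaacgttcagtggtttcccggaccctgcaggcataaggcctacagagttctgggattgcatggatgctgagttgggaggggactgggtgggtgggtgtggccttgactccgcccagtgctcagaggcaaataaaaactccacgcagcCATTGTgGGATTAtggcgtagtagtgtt
Klf4: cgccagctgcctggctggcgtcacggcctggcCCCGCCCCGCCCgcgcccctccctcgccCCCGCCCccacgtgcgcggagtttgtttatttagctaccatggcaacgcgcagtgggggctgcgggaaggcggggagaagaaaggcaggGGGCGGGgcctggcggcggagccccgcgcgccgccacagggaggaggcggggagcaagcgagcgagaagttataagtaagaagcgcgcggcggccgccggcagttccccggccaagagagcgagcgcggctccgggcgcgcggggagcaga
Zfp42: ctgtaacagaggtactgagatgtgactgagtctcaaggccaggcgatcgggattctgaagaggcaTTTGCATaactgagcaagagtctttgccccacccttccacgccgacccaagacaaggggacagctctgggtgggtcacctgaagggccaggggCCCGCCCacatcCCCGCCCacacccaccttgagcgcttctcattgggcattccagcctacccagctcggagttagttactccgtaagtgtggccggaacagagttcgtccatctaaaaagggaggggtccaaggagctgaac
Nanog: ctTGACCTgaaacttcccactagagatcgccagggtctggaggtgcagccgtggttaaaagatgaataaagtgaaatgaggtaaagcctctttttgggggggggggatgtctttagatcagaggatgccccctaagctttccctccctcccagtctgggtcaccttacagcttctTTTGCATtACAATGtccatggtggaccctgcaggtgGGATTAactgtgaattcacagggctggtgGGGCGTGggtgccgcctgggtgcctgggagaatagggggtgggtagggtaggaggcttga
The Klf4 window holds GGGCGGG 4 times and the Zfp42 window 2 times, a motif present in 25.6% of all 32851 windows. The octamer type stands in the Zfp42 and Nanog windows and in 4.63% of all windows. Klf17 and Nanog both carry TAATCC, which 7.06% of windows hold, and CATTGT, which 12.6% hold; in Klf17 both lie after the start site. In Klf17, CATTGT begins 22 bases after the start and the TAATCC match 29 bases after it. In the Nanog window the octamer and the CATTGT match are neighbours, 75 and 67 bases before the start. These matches describe the letters of the windows only.

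By reads recovered from the FPKM steps of single-exon genes, the libraries held about 22500000 to 54200000 mapped reads, with 22500000 to 27600000 in the 4 libraries of the Kdm4d and mutant Kdm4d groups. Levels are in FPKM, mapped fragments divided by transcript length and by library depth. Spearman's rho between replicates was 0.932 in mutant Kdm4d embryos and between 0.959 and 0.988 in the other groups. Kdm4d itself was at 8879 and 2255 FPKM in Kdm4d embryos, at 723 and 284 FPKM in mutant Kdm4d embryos, and under 1 FPKM in the other 10 libraries. Summed over 25 cumulus and granulosa markers, FPKM were 6650 and 5240 in donor cells and 12.3 to 186 in embryos. The highest embryo sum, in a Kdm4d library, was mostly Gja1, at 95 to 158 FPKM in that group. The sum of FPKM over all genes was lowest in SCNT 2-cell embryos (186943 and 182531) and up to 345423 elsewhere. Scaling to equal sums was therefore tried beside every test of the factors and the counts of all genes. It was not tried for relatives, other lists or genes named from them.

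**Figure D1:**
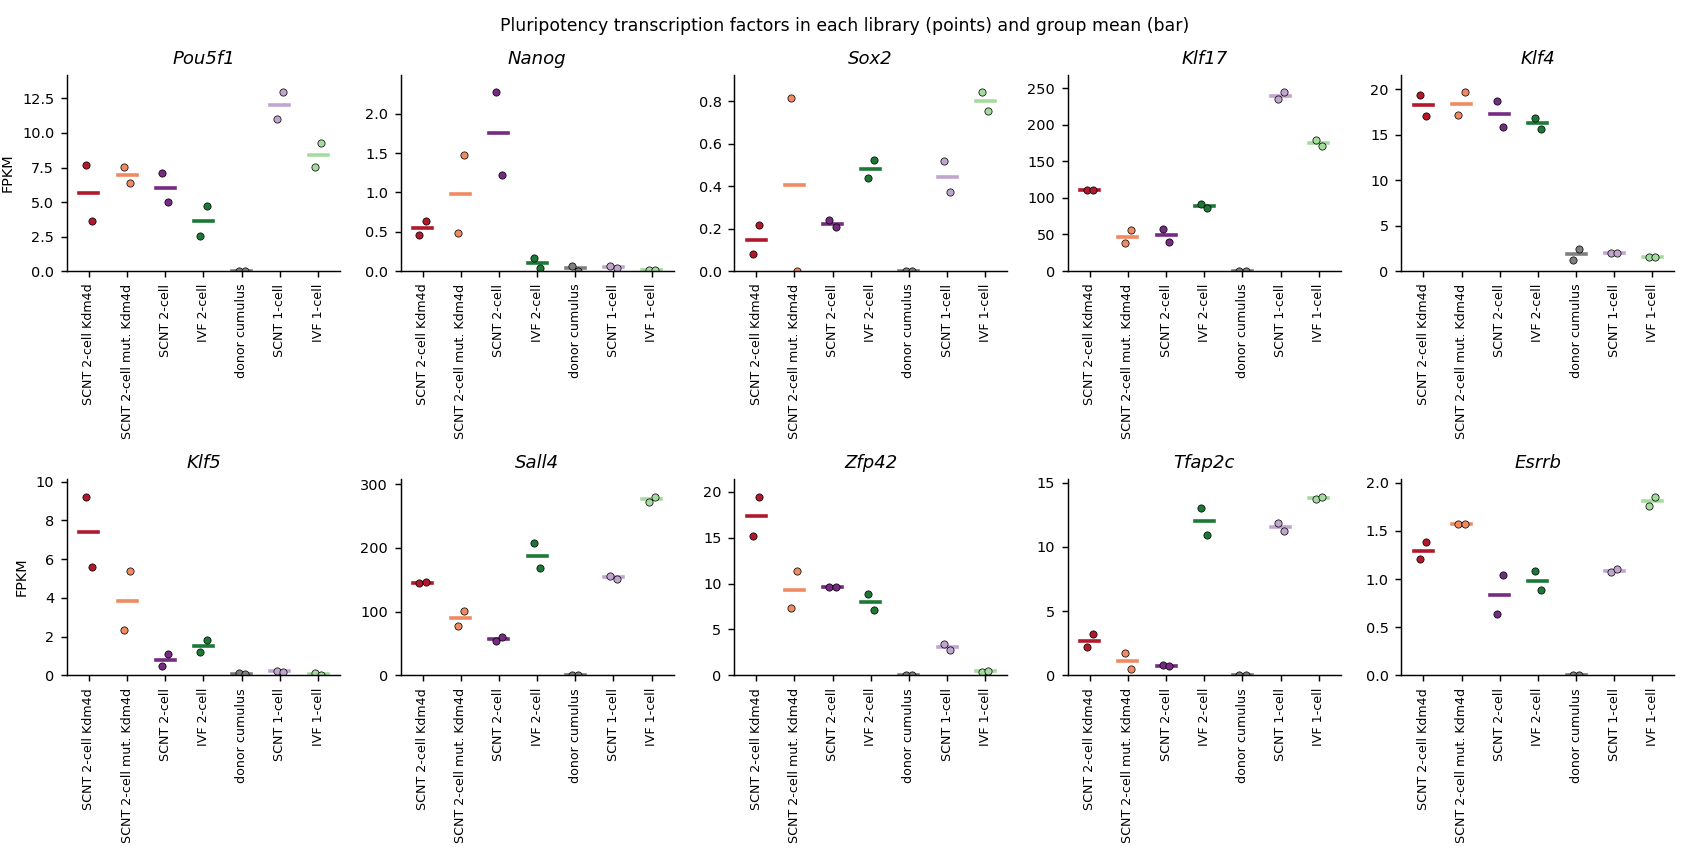
FPKM of each of the 10 factors (vertical axis, linear from 0, own scale per gene) in each library (points) with the group mean (bar), for the 7 groups. Klf4 sits between 15.7 and 19.6 FPKM in all 8 libraries of 2-cell embryos, and Tfap2c at 0.747 and 0.782 FPKM in SCNT 2-cell embryos against 10.9 and 13.1 FPKM in IVF 2-cell embryos.

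Donor cumulus cells had almost none of these transcripts, and the one clear exception was Klf4. Donor cells had 1.26 and 2.41 FPKM of Klf4, a KLF factor also used in many somatic cells, against 1.56 and 1.53 FPKM in IVF 1-cell embryos, and the libraries overlapped. Klf17 was at 0.0643 and 0.102 FPKM in donor cells, against 179.6 and 170.3 FPKM in IVF 1-cell embryos. Sall4, a zinc-finger repressor, was at 0.174 and 0.163 FPKM in donor cells and at 273 and 280.4 FPKM in IVF 1-cell embryos. Donor levels stood 2110-fold below those of IVF 1-cell embryos for Klf17 and 1640-fold below for Sall4. Pou5f1 had 0.0271 and 0.0273 FPKM in donor cells and 7.57 and 9.27 FPKM in IVF 1-cell embryos. Tfap2c, an AP-2 family factor of the germ line and trophoblast, had 0.0484 and 0.061 FPKM in donor cells and 13.7 and 13.9 FPKM in IVF 1-cell embryos. Esrrb, an orphan nuclear receptor, was at 0.0078 and 0.00786 FPKM in donor cells and at 1.75 and 1.85 FPKM in IVF 1-cell embryos. These were large gaps in each case, with no overlap between libraries. Of the 9 genes that could be tested, 6 were lower in donor cells (limma, adjusted p at most 0.046) and 0 higher, also at an unadjusted p under 0.05. Among all 13449 genes tested, 35.5% were lower and 42.4% higher. The Zfp42 call (-0.51, adjusted p = 0.046) was lost without any 1 of the 4 libraries (adjusted p 0.089 to 0.17). The remaining 3, Nanog, Klf4 and Klf5, were at most 2.41 FPKM on both sides. As in any bulk library, fewer expressing cells and less RNA per cell cannot be told apart.

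Sox2, the partner of POU5F1, stayed under 1 FPKM in all 14 libraries and was not tested. Its FPKM gave whole reads, which are printed in its place. There were 5 and 11 reads in Kdm4d embryos, 46 and 0 in mutant Kdm4d embryos, 24 and 22 in SCNT 2-cell embryos, and 42 and 51 in IVF 2-cell embryos. Donor cells had 0 and 0, SCNT 1-cell embryos 61 and 42, and IVF 1-cell embryos 103 and 86. The order by level was IVF 1-cell first, then IVF 2-cell and SCNT 1-cell, which overlapped, then the SCNT 2-cell groups. Without Kdm4d, SCNT embryos lay below IVF embryos at both stages, untested, at 0.206 to 0.241 FPKM against 0.44 to 0.525 FPKM in 2-cell embryos and at 0.372 to 0.517 FPKM against 0.756 to 0.841 FPKM in 1-cell embryos. The mutant Kdm4d replicates were the highest and the lowest of the 8 libraries of 2-cell embryos by FPKM. Its 0 reads allow up to 0.0493 FPKM, the value of 3 reads, and cover counting error only.

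At the 1-cell stage SCNT and IVF embryos differed by test in 2 of the 9 factors, Zfp42 and Sall4. Zfp42, the stem cell marker REX1, had 3.43 and 2.76 FPKM in SCNT 1-cell embryos, against 0.38 and 0.496 FPKM in IVF 1-cell embryos. It was 7.07-fold higher in SCNT embryos, with a difference in log2(FPKM + 1) of 1.51 ± 0.21 (SE, limma adjusted p = 0.004). Donor cells had 0.0195 and 0 FPKM of it, below either embryo group. Sall4 had 156 and 151 FPKM in SCNT 1-cell embryos, against 273 and 280.4 FPKM in IVF 1-cell embryos, a difference of -0.84 ± 0.15 (adjusted p = 0.016). The groups did not overlap for either gene, but neither did they for any other factor, the untested Sox2 included. A lack of overlap therefore does not set these 2 apart. Klf17 stood the other way round from Sall4, at 235 and 244 FPKM in SCNT 1-cell embryos and 179.6 and 170.3 FPKM in IVF 1-cell embryos, but did not pass the test (difference 0.45 ± 0.19, adjusted p = 0.28). Pou5f1, at 11.0 and 12.9 FPKM in SCNT and 7.57 and 9.27 FPKM in IVF 1-cell embryos, also missed it (0.47 ± 0.3, adjusted p = 0.53). Esrrb had 1.07 and 1.11 FPKM in SCNT and 1.75 and 1.85 FPKM in IVF embryos (adjusted p = 0.19), and Tfap2c 11.9 and 11.2 FPKM in SCNT and 13.7 and 13.9 FPKM in IVF embryos (adjusted p = 0.75). Nanog, Klf4 and Klf5 were at most 2.01 FPKM in all 4 libraries. Of all genes, 1.36% were higher and 0.981% lower in SCNT 1-cell embryos, and without any 1 of the 4 libraries the counts were 36 to 47 higher and 9 to 11 lower genes. The Sall4 call was lost without any 1 of the 4 libraries (adjusted p 0.14 to 0.18), after quantile normalization (0.18) and with equal FPKM sums (0.091), and the Zfp42 call without IVF 1-cell replicate 1 or SCNT 1-cell replicate 1 (0.063 and 0.074). Zfp42 shares 8.52% of its 50-base stretches with the pseudogene Zfp42-ps1, and Klf17 shares 9.32% with Gm20690.

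Between the 1-cell and 2-cell stage some factors rose and others fell, and the change differed by test between SCNT and IVF embryos for 5 of the 9. Of all genes, 16.5% were higher and 12.7% lower in that difference. Klf4 and Zfp42 rose in both kinds of embryo. Klf4 reached 18.7 and 15.9 FPKM in SCNT 2-cell embryos, against 2.01 and 1.94 FPKM in SCNT 1-cell embryos, and 16.8 and 15.7 FPKM in IVF 2-cell embryos, against 1.56 and 1.53 FPKM in IVF 1-cell embryos. Its rise was 2.62 ± 0.19 in SCNT and 2.76 ± 0.19 in IVF (limma adjusted p 4e-07 and 1.4e-07), 8.76-fold and 10.5-fold, and the rises did not differ by test (-0.14 ± 0.28, adjusted p = 0.73). Zfp42 reached 9.67 and 9.67 FPKM in SCNT 2-cell embryos and 8.85 and 7.1 FPKM in IVF 2-cell embryos. SCNT embryos had more Zfp42 at the 1-cell stage, and the rise was smaller in them, 1.39 ± 0.21 against 2.64 ± 0.21 in IVF (difference of the rises -1.25 ± 0.3, adjusted p = 0.0097). Klf5, a KLF factor of trophoblast and stem cells, rose in IVF embryos to 1.23 and 1.81 FPKM, against 0.133 and 0.026 FPKM at the 1-cell stage (1.21 ± 0.3, adjusted p = 0.0031). In SCNT embryos Klf5 had 0.491 and 1.1 FPKM at the 2-cell and 0.251 and 0.158 FPKM at the 1-cell stage (0.56 ± 0.3, adjusted p = 0.12), and the rises did not differ by test (adjusted p = 0.27).

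Nanog was the one factor gained in SCNT embryos that IVF embryos showed almost none of. It had 2.27 and 1.23 FPKM in SCNT 2-cell embryos and 0.0662 and 0.0346 FPKM in SCNT 1-cell embryos, and 0.164 and 0.0402 FPKM in IVF 2-cell embryos and 0.016 and 0.0172 FPKM in IVF 1-cell embryos. The rise was 1.36 ± 0.22 in SCNT (limma adjusted p = 0.00019) and 0.11 ± 0.22 in IVF (adjusted p = 0.69), and the rises differed by 1.25 ± 0.32 (adjusted p = 0.012). Nanog passed the filter through 3 libraries, both of SCNT 2-cell and 1 of mutant Kdm4d embryos, so it was tested only because it is high there. Without the filter its SCNT rise had an adjusted p of 0.0011 and the difference of the rises one of 0.03. Other genes, Nanog-ps1 foremost, hold 4.61% of the 50-base stretches of Nanog.

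Tfap2c, Klf17 and Sall4 were lost more in SCNT than in IVF embryos. Tfap2c fell to 0.782 and 0.747 FPKM in SCNT 2-cell embryos, against 11.9 and 11.2 FPKM in SCNT 1-cell embryos (-2.83 ± 0.26, limma adjusted p = 1.7e-06). In IVF embryos it had 13.1 and 10.9 FPKM at the 2-cell and 13.7 and 13.9 FPKM at the 1-cell stage (-0.19 ± 0.26, adjusted p = 0.54). SCNT embryos kept little of it and IVF embryos most, and the changes differed by -2.64 ± 0.36 (adjusted p = 4e-04). Klf17 fell to 57.6 and 40.0 FPKM in SCNT 2-cell embryos (-2.29 ± 0.19) and to 91.5 and 85.8 FPKM in IVF 2-cell embryos (-0.97 ± 0.19), a difference of -1.32 ± 0.27 (adjusted p = 0.0041). By its values Klf17 in SCNT embryos stood above IVF embryos at the 1-cell stage and below them at the 2-cell stage. Sall4 fell to 54.7 and 59.9 FPKM in SCNT 2-cell embryos (-1.41 ± 0.15) and to 208 and 168 FPKM in IVF 2-cell embryos (-0.56 ± 0.15), a difference of -0.84 ± 0.22 (adjusted p = 0.013). Pou5f1 fell in both, to 7.09 and 4.97 FPKM in SCNT 2-cell embryos (-0.9 ± 0.3) and to 2.53 and 4.68 FPKM in IVF 2-cell embryos (-1.07 ± 0.3), with adjusted p = 0.8 for the difference. Esrrb fell in IVF embryos to 1.08 and 0.882 FPKM (-0.5 ± 0.15, adjusted p = 0.01) and was at 0.634 and 1.04 FPKM in SCNT 2-cell embryos (-0.19 ± 0.15, adjusted p = 0.27; adjusted p = 0.3 for the difference).

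Of the 9 factors, 3 rose and 4 fell in SCNT embryos, where 35.5% of all genes rose and 31.5% fell. In IVF embryos 3 rose and 4 fell as well, among 30.4% and 37.2% of all genes. For the difference between the changes, 1 was higher and 4 lower, among 16.5% and 12.7% of all genes. The share of factors past the test was near that of all genes for each stage change. Maternal oocyte markers fell in the same libraries, 25 of 28 tested in SCNT and 27 of 28 in IVF embryos, and the part of stored RNA in each fall was not tested. With FPKM scaled to equal sums, which moves the median of all genes by 0.48 in the SCNT stage change and by 0.14 in that of IVF, the 4 falls in IVF embryos and the Pou5f1 fall in SCNT embryos no longer passed, nor did the differences between the stage changes for Sall4 (-0.6, adjusted p = 0.098) and Zfp42 (-0.83, adjusted p = 0.083). After quantile normalization the Sall4 difference (-0.71, adjusted p = 0.05) and its fall in IVF embryos (-0.03, adjusted p = 0.91) missed the test. Without 1 library the Sall4 difference was lost in 4 of 8 cases, replicate 1 of each of the 4 groups (adjusted p 0.05 to 0.065), and the Pou5f1, Esrrb and Sall4 falls in IVF embryos in 1 or 2 cases each, among them IVF 2-cell replicate 2 for Esrrb and Sall4, IVF 2-cell replicate 1 for Pou5f1 and IVF 1-cell replicate 2 for Pou5f1 and Esrrb. The Pou5f1 fall in SCNT embryos was lost without SCNT 1-cell replicate 2 or SCNT 2-cell replicate 2 (adjusted p 0.1 and 0.14).

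**Figure D2:**
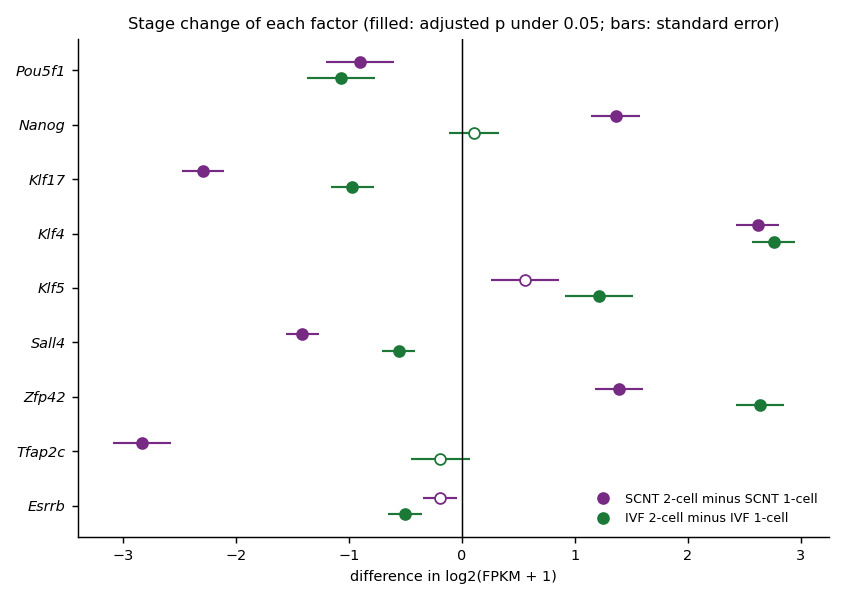
Difference in log2(FPKM + 1) between the 2-cell and the 1-cell stage (horizontal axis) for the 9 factors tested (Sox2 was not), in SCNT (purple) and IVF embryos (green), with standard errors. Filled points passed limma's test, and the pairs lie farthest apart for Tfap2c, at -2.83 in SCNT and -0.19 in IVF.

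At the 2-cell stage itself, cloned embryos had less Tfap2c, Sall4 and Klf17 and more Nanog than fertilised ones. Tfap2c was 15.7-fold lower in SCNT 2-cell than in IVF 2-cell embryos, with the values given above (-2.88 ± 0.26, limma adjusted p = 6.8e-06). Sall4 was 3.28-fold lower (-1.69 ± 0.15, adjusted p = 8e-06) and Klf17 1.82-fold lower (-0.87 ± 0.19, adjusted p = 0.0031). Nanog was higher by 1.29 ± 0.22 (adjusted p = 0.00064, or 0.0028 without the filter that it passed through its SCNT 2-cell level). Klf4 and Zfp42 were not different by test (0.08 ± 0.19 and 0.26 ± 0.21, adjusted p = 0.76 and 0.35), nor were Pou5f1 (0.64 ± 0.3, adjusted p = 0.1), Klf5 (-0.5 ± 0.3, adjusted p = 0.19) and Esrrb (-0.12 ± 0.15, adjusted p = 0.55). The count of 1 higher and 3 lower stands beside 30.3% and 16.6% of all genes. The median difference was -0.12 over the 9 factors and 0.23 over all genes. In the same comparison 20 of 23 tested markers of the 2-cell stage were lower, with sums of 897 and 826 FPKM in SCNT and 3120 and 3010 FPKM in IVF 2-cell embryos, and their part in these differences was not tested. The Tfap2c, Sall4 and Nanog calls held under all 11 alternatives run, whereas Klf17 missed the test after quantile normalization (-0.45, adjusted p = 0.11) and with equal FPKM sums (-0.51, adjusted p = 0.07). Reads of Sall4 and of Gm14261, which lies on the opposite strand over it, cannot be told apart, and the same holds for Pou5f1 and Gm19553.

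With overexpressed Kdm4d, 5 of the 9 factors were higher than in SCNT 2-cell embryos and 1 was lower. Klf5 changed most: it had 9.23 and 5.59 FPKM in Kdm4d embryos, against 0.491 and 1.1 FPKM in SCNT 2-cell embryos, 9.33-fold higher (2.22 ± 0.3, limma adjusted p = 0.00017). Sall4 had 145 and 146 FPKM in Kdm4d embryos, against 54.7 and 59.9 FPKM in SCNT 2-cell embryos (1.33 ± 0.15, adjusted p = 6.7e-05). Klf17 had 111 and 111 FPKM in Kdm4d embryos, against 57.6 and 40.0 FPKM in SCNT 2-cell embryos (1.19 ± 0.19, adjusted p = 0.00055). For all 3 genes both Kdm4d libraries lay well above both SCNT libraries. Tfap2c had 2.21 and 3.22 FPKM in Kdm4d embryos, against 0.782 and 0.747 FPKM in SCNT 2-cell embryos, 3.55-fold higher (1.06 ± 0.26, adjusted p = 0.0064). Zfp42 had 15.2 and 19.5 FPKM in Kdm4d embryos, against 9.67 and 9.67 FPKM in SCNT 2-cell embryos (0.77 ± 0.21, adjusted p = 0.014). Nanog moved the other way, at 0.462 and 0.635 FPKM in Kdm4d embryos, against 2.27 and 1.23 FPKM in SCNT 2-cell embryos (-0.8 ± 0.22, adjusted p = 0.013). It was tested only because it is high in SCNT 2-cell embryos and 1 mutant Kdm4d library. Without the filter its adjusted p was 0.031. Pou5f1 was at 7.72 and 3.64 FPKM in Kdm4d embryos, replicates that spanned those of SCNT 2-cell embryos (-0.13 ± 0.3, adjusted p = 0.77). Klf4, at 19.4 and 17.0 FPKM in Kdm4d embryos (0.07 ± 0.19, adjusted p = 0.8), overlapped too, and its sign turned with equal FPKM sums (-0.6, adjusted p = 0.045). Esrrb had 1.21 and 1.39 FPKM in Kdm4d embryos (0.33 ± 0.15, adjusted p = 0.1).

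The 5 higher and 1 lower stand beside 21% and 18.5% of all genes in that comparison, and the median difference was 0.77 over the factors and -0.02 over all genes. The Klf5, Sall4 and Tfap2c calls held under all 11 alternatives. With equal FPKM sums, which move the median of all genes by -0.44, the differences were 0.5 for Klf17 (adjusted p = 0.077) and 0.12 for Zfp42 (0.7), and after quantile normalization 0.54 (0.065) and 0.52 (0.063). In a fit to these 4 libraries alone Nanog and Zfp42 missed the test (0.076 and 0.053). The Zfp42 call was lost without SCNT 2-cell replicate 1 or 2 or Kdm4d replicate 2 (adjusted p 0.058 to 0.086), and the Nanog call without SCNT 2-cell replicate 1 (0.13) or Kdm4d replicate 1 (0.065). Markers of the 2-cell stage rose with these genes, 19 of 23, to sums of 2590 and 3780 FPKM in Kdm4d embryos. Cumulus and granulosa markers, which sum to 121 and 186 FPKM in Kdm4d and 63.4 and 57.8 FPKM in SCNT 2-cell embryos, rose in 2 of 22 tested and fell in 4, and their part was not tested. Most of each sum was Gja1, at 95 to 158 FPKM in Kdm4d and 34.2 to 35.9 FPKM in SCNT 2-cell embryos. Gja1 was also at 58.9 FPKM in IVF 2-cell embryos, against 0.688 FPKM in IVF 1-cell embryos. Donor cells themselves had at most 0.174 FPKM of any of the 5 factors higher with Kdm4d, with Sall4 the highest.

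With mutant Kdm4d, 3 of the 9 factors were higher than in SCNT 2-cell embryos, and its replicates were farther apart. Klf5 had 2.35 and 5.37 FPKM in mutant Kdm4d embryos, against 0.491 and 1.1 FPKM in SCNT 2-cell embryos (1.39 ± 0.3, limma adjusted p = 0.01). Sall4 had 78 and 101 FPKM in mutant Kdm4d embryos (0.62 ± 0.15, adjusted p = 0.019), and Esrrb 1.57 and 1.57 FPKM (0.5 ± 0.15, adjusted p = 0.041). All 3 were above the SCNT 2-cell libraries. The other 6 were not called. Klf17 had 38.5 and 55.7 FPKM in mutant Kdm4d embryos and Zfp42 7.3 and 11.3 FPKM, both overlapping SCNT 2-cell embryos. Tfap2c had 1.72 and 0.46 FPKM, Nanog 0.483 and 1.48 FPKM, Pou5f1 7.55 and 6.38 FPKM, and Klf4 17.2 and 19.6 FPKM. For Tfap2c the mutant replicates lay on either side of the SCNT 2-cell libraries, replicate 1 above. For Nanog replicate 1 lay below them and replicate 2 within their range. The 3 higher and 0 lower factors stand beside 11.3% and 6.41% of all genes. At an unadjusted p under 0.05, 3 were higher and 1 lower. The fit to these groups alone called 0, and leaving out 1 library gave between 0 and 4 higher and up to 1 lower. With equal FPKM sums Sall4 (0.16, adjusted p = 0.54) and Esrrb (0.27, adjusted p = 0.23) were not called, and after quantile normalization Sall4 was not (0.36, adjusted p = 0.17). Esrrb lost its call under 8 of 11 alternatives, Sall4 under 6 and Klf5 under 2. Without SCNT 2-cell replicate 1 none of the 3 passed (adjusted p 0.093 to 0.26), Sall4 was lost also without SCNT 2-cell replicate 2 (0.054), and Esrrb also without mutant Kdm4d replicate 1 (0.09).

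Set against the mutant directly, Kdm4d embryos had 5 factors higher and 0 lower by limma, also at an unadjusted p under 0.05, beside 21.4% and 22.5% of all genes. On the log2(FPKM + 1) scale Klf17 differed most (1.24 ± 0.19, limma adjusted p = 0.00042; 2.36-fold), followed by Tfap2c, whose fold was larger at 2.49 (0.89 ± 0.26, adjusted p = 0.015), Zfp42 (0.85 ± 0.21, adjusted p = 0.0079), Klf5 (0.83 ± 0.3, adjusted p = 0.041) and Sall4 (0.71 ± 0.15, adjusted p = 0.0035). None of these 5 overlapped between the groups, but neither did Esrrb, which was lower in Kdm4d embryos by its values. With 2 libraries a group, a lack of overlap adds little to the calls. This comparison shares the Kdm4d libraries with the one against SCNT 2-cell embryos. Klf4 differed by -0.01 ± 0.19, Pou5f1 by -0.32 ± 0.3, Nanog by -0.31 ± 0.22 and Esrrb by -0.17 ± 0.15, with adjusted p of at least 0.28. In a fit to these 4 libraries alone none of the factors passed, and none of all genes either. With equal FPKM sums the Klf5, Sall4 and Zfp42 calls were lost (adjusted p 0.054 to 0.16). Without mutant Kdm4d replicate 1 Klf5 and Zfp42 were lost (adjusted p 0.33 and 0.058), without mutant Kdm4d replicate 2 Tfap2c (0.098), without Kdm4d replicate 1 Klf5 (0.24), and without Kdm4d replicate 2 Zfp42 and Tfap2c (0.058 and 0.11). The Kdm4d transcript differed between these groups too, with the levels given above, so an effect of the mutation and of the amount of transcript cannot be told apart.

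**Figure D3:**
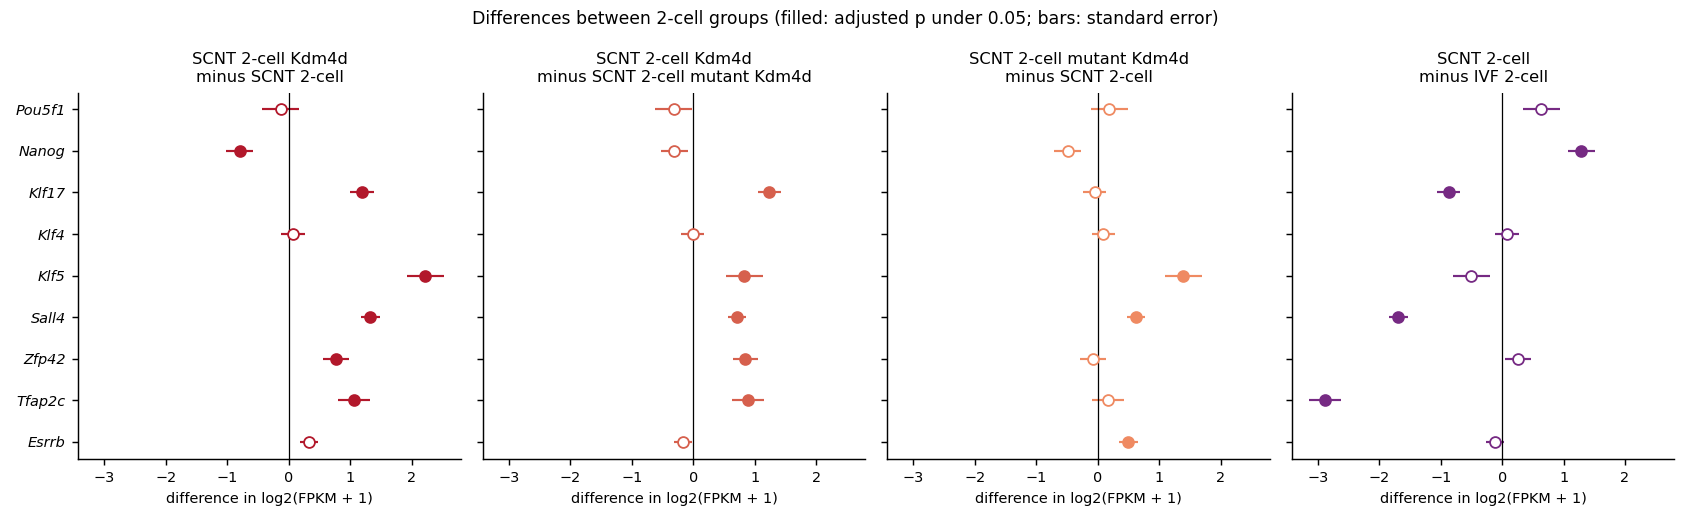
Difference in log2(FPKM + 1) for the 9 factors tested in 4 comparisons of 2-cell groups, with standard errors, and filled points for adjusted p under 0.05. Klf5, Klf17, Sall4, Zfp42 and Tfap2c lie right of 0 in both panels of Kdm4d embryos, while Tfap2c lies at -2.88 in SCNT against IVF 2-cell embryos. The panels share libraries.

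Against IVF 2-cell embryos, Kdm4d embryos stood level for some factors, short for one and above for others. Klf17 was at 111 and 111 FPKM in Kdm4d and 91.5 and 85.8 FPKM in IVF 2-cell embryos (0.32 ± 0.19, limma adjusted p = 0.27), and Sall4 at 145 and 146 FPKM in Kdm4d and 208 and 168 FPKM in IVF embryos (-0.36 ± 0.15, adjusted p = 0.13). Tfap2c was 4.42-fold lower in Kdm4d embryos (-1.82 ± 0.26, adjusted p = 0.00078). Klf5 was 4.88-fold and Zfp42 2.17-fold higher in Kdm4d than in IVF 2-cell embryos (1.71 ± 0.3 and 1.03 ± 0.21, adjusted p = 0.0025 and 0.0065). The groups did not overlap for any of these 5 genes, but neither did they for Nanog, Klf4, Esrrb and the untested Sox2. A lack of overlap therefore does not set these 5 apart, and with 2 libraries a group it adds little. Pou5f1, Nanog, Klf4 and Esrrb missed the test (adjusted p 0.14 to 0.64). The count of 2 higher and 1 lower stands beside 16.6% and 3.7% of all genes. Sall4 was called lower in Kdm4d embryos after quantile normalization (-0.61) and with equal FPKM sums (-0.69), and Zfp42 lost its call with equal FPKM sums (0.72, adjusted p = 0.071) and without IVF 2-cell replicate 2 (0.89, adjusted p = 0.071). In a fit to these 4 libraries alone none of the 3 calls passed, with adjusted p = 0.055 for Tfap2c, 0.073 for Klf5 and 0.085 for Zfp42. Mutant Kdm4d embryos had 3 factors higher than IVF 2-cell embryos (Pou5f1, Nanog and Klf5, at 0.83, 0.8 and 0.89) and 3 lower (Klf17, Sall4 and Tfap2c, at -0.92, -1.06 and -2.7), beside 36.4% and 18.1% of all genes. Nanog passed the filter only through SCNT 2-cell embryos and 1 mutant Kdm4d library. Without the filter its adjusted p here was 0.024. The 3 lower calls held under all 11 alternatives. Each of the 3 higher calls was lost without mutant Kdm4d replicate 2 and without 1 of the IVF 2-cell libraries, replicate 1 for Pou5f1 and Klf5 and replicate 2 for Nanog, that of Pou5f1 also without mutant Kdm4d replicate 1. All 3 were lost after quantile normalization (adjusted p 0.076 to 0.19) and in a fit to these 4 libraries alone (0.081 to 0.14).

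The order of levels shows 3 kinds of pattern. Sall4, Klf17, Tfap2c, Pou5f1, Esrrb and Sox2 were highest in a 1-cell group, Klf4, Klf5 and Zfp42 in an SCNT 2-cell group with Kdm4d or its mutant, and Nanog in SCNT 2-cell embryos. For Sall4 all 7 groups stood apart without overlap, in the order IVF 1-cell, IVF 2-cell, SCNT 1-cell, Kdm4d, mutant Kdm4d, SCNT 2-cell and donor cells. SCNT 1-cell and Kdm4d embryos lay close, at 151 to 156 and 145 to 146 FPKM. With 2 libraries a group such separation adds little, and no share of all genes is given beside it. For Klf4 the 4 groups of 2-cell embryos overlapped with their neighbours in order, and so did the 1-cell groups with donor cells. For Klf17 the mutant Kdm4d and SCNT 2-cell embryos overlapped and the other neighbours did not. Over the 14 libraries Pearson's r of log2(FPKM + 1) was 0.976 between Klf17 and Sall4, 0.908 between Klf4 and Zfp42, and -0.538 between Nanog and Tfap2c. These are descriptions over libraries that fall in groups. Donor libraries, at most 0.174 FPKM for Klf17 and Sall4, lie far below every embryo library of these genes and weigh heavily in each r with them. The gene nearest in pattern was Csrnp2 for Klf17 (r = 0.99), Nol8 and Dppa3 for Sall4 (0.993 each), Folr1 for Klf4 (0.99), Aurkb for Zfp42 (0.978), Gramd2 for Nanog (0.984), Bptf for Tfap2c (0.965), Tnfrsf13b for Klf5 (0.967), Fam84b for Esrrb (0.972), 4930522H14Rik for Pou5f1 (0.984) and Usp51 for Sox2 (0.885), chosen among 8947 genes or, for Nanog, Sox2 and Esrrb, 8948.

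Within their gene families the factors were seldom the leading member, with Sall4 and Klf17 as the exceptions. Sall4 made up 99.2% to 99.9% of the summed FPKM of its family in every embryo group, against 9.68% in donor cells. Klf17 made up 50% of the KLF sum in Kdm4d embryos, 24.5% in mutant Kdm4d, 28.3% in SCNT 2-cell and 45.6% in IVF 2-cell embryos, and 81.7% and 79.4% in SCNT and IVF 1-cell embryos. Klf10, a KLF factor induced by TGF-beta, led the family instead in mutant Kdm4d (72.9 FPKM) and narrowly in SCNT 2-cell embryos (49.6 FPKM, with Klf17 at 48.8 FPKM), and was at 25.5 FPKM in Kdm4d and 39.1 FPKM in IVF 2-cell embryos. Klf10 was lower in Kdm4d than in SCNT 2-cell embryos (-1.01 ± 0.27, limma adjusted p = 0.0099), where Klf17 was higher. Tfap2c was the leading AP-2 gene in IVF 2-cell embryos alone among embryos, with 58.7% of the family sum. Tfap2e, another AP-2 gene, led in the others, at 6.22 FPKM in Kdm4d, 10.1 FPKM in mutant Kdm4d and 8.68 FPKM in SCNT 2-cell embryos, and at 7.08 FPKM in IVF 2-cell embryos. Tfap2e did not differ by test between SCNT and IVF 2-cell embryos (0.26 ± 0.29, adjusted p = 0.48), while Tfap2c did. Relatives that led a family were named after their values were seen, and the alternative scalings and fits were not run for them. Pou5f1 stood below Pou4f1 and Esrrb below Esrrg in every embryo group, and Sox15 led the SOX genes in all 4 groups of 2-cell embryos, at 6.93 to 19.1 FPKM. Of 32 tested relatives of the 10 factors, 13 were higher and 5 lower in SCNT than in IVF 2-cell embryos, and 6 were higher and 6 lower in Kdm4d than in SCNT 2-cell embryos. Of all genes, 30.3% were higher and 16.6% lower in the first comparison, and 21% and 18.5% in the second.

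**Figure D4:**
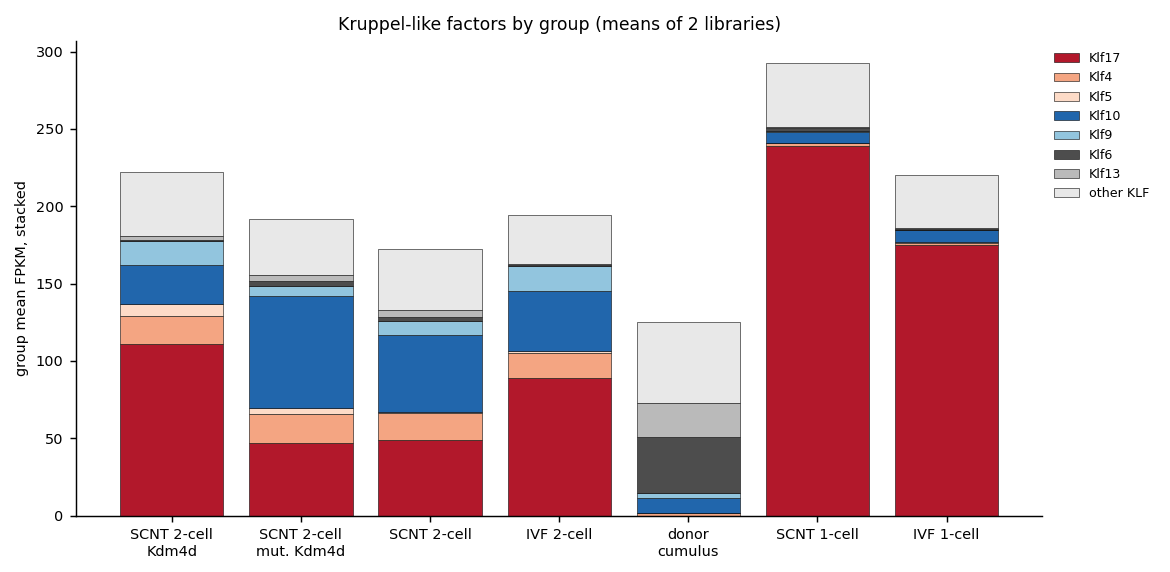
Mean FPKM of the KLF genes, stacked, in each of the 7 groups (means of 2 libraries, vertical axis from 0). Klf17 (dark red) makes up 50% of the stack in Kdm4d embryos and 28.3% in SCNT 2-cell embryos, and Klf10 (dark blue) is at 25.5 FPKM in Kdm4d and 49.6 FPKM in SCNT 2-cell embryos.

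A fixed list of 40 other pluripotency genes, chosen with earlier results of these data known, gave the surroundings of these factors. The alternative scalings and fits were not run for this list. Of 34 tested, 12 were higher and 12 lower in SCNT than in IVF 2-cell embryos, with a median difference of 0.1 beside 0.23 for all genes. Of all genes, 30.3% were higher and 16.6% lower there. The largest fall was that of Tbx3, a T-box factor of naive stem cells, at 0.476 ± 0.219 FPKM in SCNT and 11.3 ± 0.87 FPKM in IVF 2-cell embryos (SD, n = 2; -3.06 ± 0.17, limma adjusted p = 3.4e-07). Tbx3 was at 0.666 ± 0.174 FPKM in Kdm4d embryos, so like Tfap2c it stayed below IVF 2-cell embryos there (-2.88 ± 0.17, adjusted p = 1.4e-06). Dppa3 (STELLA), which guards maternal DNA methylation, followed Sall4, at 5780 ± 677 FPKM in Kdm4d, 1510 ± 120 FPKM in SCNT 2-cell and 6020 ± 189 FPKM in IVF 2-cell embryos. It fell by 2 in SCNT against IVF 2-cell embryos and rose by 1.93 ± 0.23 with Kdm4d (adjusted p = 7.9e-05), and 16.5% of its 50-base stretches are shared with other genes. Mycn, a MYC family factor, was higher in SCNT than in IVF 2-cell embryos, at 9.25 ± 1.38 FPKM and 2.42 ± 1.07 FPKM (1.61 ± 0.22, adjusted p = 0.00012). With Kdm4d, 13 of the 34 were higher and 5 lower than in SCNT 2-cell embryos, and with mutant Kdm4d 4 were higher and 0 lower (8 and 4 at an unadjusted p under 0.05). These stand beside 21% and 18.5% of all genes with Kdm4d, and 11.3% and 6.41% with mutant Kdm4d. Between SCNT and IVF 1-cell embryos 0 of the 34 were called by limma (5 higher and 2 lower at an unadjusted p under 0.05), beside 1.36% higher and 0.981% lower of all genes.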

How the data were processed

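Bulk RNA-seq of pooled embryos or cells was deposited as 1 table of FPKM for 14 libraries and 23697 rows, made by the authors. Per the labels' protocols, lysed samples went through SMARTer cDNA synthesis and NEBNext Ultra libraries with single-end reads of 50 bases. The submitters' processing notes name Novoalign (no version), Cufflinks 2.0.2 and build mm9. The kit as named marks no strand, and the sources used here do not say how reads with several matches were counted.

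Here, 810 rows of short RNAs were left out and the 630 rows that share a symbol were summed. The 13449 genes with at least 1 FPKM in 2 libraries were tested on log2(FPKM + 1) with no further scaling, a scale that understates changes of low genes. One model over all 7 groups was fitted with limma 3.58.1 under R 4.3.3, with a trend in the prior variance, 7 residual degrees of freedom and a median of 4.75 prior ones. P-values are two-sided, adjusted by Benjamini and Hochberg over all genes tested in each comparison, at a threshold of 0.05. The fit was tested on simulated data in which each gene had the same spread in every group. Groups that differ in spread were not covered by that test.

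Reads were recovered from FPKM of single-exon genes as FPKM times length less 200 bases, with 95.5% to 99.4% of values within 0.05 of a whole read. Sequence sharing was counted as 50-base stretches in GENCODE transcripts, and promoters came from RefSeq, whose GRCm38 coordinates were not joined to the mm9 table. The 10 genes are fixed by name, and from other lists up to 2 called genes that rose most and 2 that fell most per comparison, averaging 5 FPKM or more in either group, could be named. The genes nearest in pattern were those with the highest Pearson's r among genes whose highest group mean reached 5 FPKM. The genes and lists were chosen with earlier results of these data known. Other scalings, pseudocounts, filters, fits and left-out libraries were tried as alternatives for the factors and for the counts of all genes.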

Additional observations from a re-analysis of the deposited data

Results flagged for a closer look

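For 5 of the 9 factors tested, the change between the 1-cell and the 2-cell stage differed between SCNT and IVF embryos by limma's test of the difference itself. Among all 13449 genes tested, 16.5% were higher and 12.7% lower in that difference. The difference of the changes, SCNT minus IVF in log2(FPKM + 1), was 1.25 for Nanog (adjusted p = 0.012), -1.32 for Klf17 (0.0041), -0.84 for Sall4 (0.013), -1.25 for Zfp42 (0.0097) and -2.64 for Tfap2c (4e-04). Nanog entered the test only through its level in SCNT 2-cell embryos and in 1 mutant Kdm4d library, and its adjusted p was 0.03 without the filter. With equal FPKM sums Sall4 (-0.6, adjusted p = 0.098) and Zfp42 (-0.83, adjusted p = 0.083) missed the test, and Sall4 missed it under 6 of 15 alternatives. All 4 libraries of a stage pair enter each change, and the strain of the egg differs between the embryo kinds as well.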

How the results depend on the processing

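Of 99 differences tested for the 9 factors in 11 comparisons, 54 were called, and 26 of these kept their call under every alternative. Calls lost numbered 3 with a pseudocount of 0.1, 5 without a filter, 11 after quantile normalization, 20 with equal FPKM sums, 16 in fits to the compared groups only and 7 with group weights. The one reversal was Klf4 in Kdm4d against SCNT 2-cell embryos, -0.6 with equal FPKM sums. The cause of these changes was not tested.

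Counts of factors called moved as follows. With equal FPKM sums they were 0 lower in SCNT against IVF 1-cell embryos, 0 lower in the IVF stage change, 2 lower in the difference of stage changes, 2 higher in SCNT against IVF 2-cell embryos, 3 higher and 2 lower in Kdm4d against SCNT 2-cell embryos, 1 higher and 1 lower in mutant Kdm4d against SCNT 2-cell embryos, 2 higher in Kdm4d against mutant Kdm4d embryos, 1 higher and 2 lower in Kdm4d against IVF 2-cell embryos, and 1 higher in mutant Kdm4d against IVF 2-cell embryos. In fits to the compared groups only they were 2 higher in SCNT against IVF 1-cell embryos, 0 lower in Kdm4d against SCNT 2-cell embryos, 0 higher and 0 lower in Kdm4d against IVF 2-cell embryos, and 0 higher in mutant Kdm4d against SCNT 2-cell, in Kdm4d against mutant Kdm4d and in mutant Kdm4d against IVF 2-cell embryos. With group weights they were 3 higher and 2 lower in SCNT against IVF 1-cell embryos, and 1 higher in mutant Kdm4d against SCNT 2-cell and in Kdm4d against mutant Kdm4d embryos. Quantile normalization gave 0 lower in SCNT against IVF 1-cell embryos, 2 lower in Kdm4d and 0 higher in mutant Kdm4d against IVF 2-cell embryos, and no filter gave 1 higher in the last.

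Leaving out each library in turn, with the lone library assumed to vary like the other groups, gave 0 to 1 higher and 0 to 0 lower in SCNT against IVF 1-cell embryos, 2 to 4 lower in the IVF stage change, and 1 to 2 higher in SCNT against IVF 2-cell embryos. It gave 4 to 5 higher and 0 to 1 lower in Kdm4d against SCNT 2-cell embryos, 0 to 4 higher and 0 to 1 lower in mutant Kdm4d against SCNT 2-cell embryos, 3 to 4 higher and 0 to 1 lower in Kdm4d against mutant Kdm4d embryos, 1 to 3 higher in Kdm4d against IVF 2-cell embryos, and 0 to 2 higher in mutant Kdm4d against IVF 2-cell embryos.

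Over all genes, 132 were lower in SCNT than in IVF 1-cell embryos, 66 after quantile normalization, 1531 with group weights and 9 to 11 without 1 library. Counts higher and lower in Kdm4d against SCNT 2-cell embryos were 2826 and 2488, and 1151 and 5884 with equal FPKM sums. In mutant Kdm4d against SCNT 2-cell embryos they were 1515 and 862, in Kdm4d against mutant Kdm4d embryos 2877 and 3026, and 0 for all 4 in fits to the compared groups only.

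Nothing says that the replicate numbers pair the libraries. Of 21 pairs of groups 1 had a correlation of deviations over 0.1, that of Kdm4d with mutant Kdm4d embryos (0.305). With 2 libraries a group, the sign of each correlation depends on which library is numbered 1. These values therefore cannot show whether the Kdm4d and mutant Kdm4d groups, which are compared directly above, varied together by replicate number. Both ran opposite to SCNT 2-cell embryos (-0.257 and -0.233) and to IVF 2-cell embryos (-0.131 and -0.154). With the replicate block 2 calls were lost, Esrrb in mutant Kdm4d against SCNT 2-cell embryos (0.5, adjusted p = 0.053) and Zfp42 in donor cells against IVF 1-cell embryos (-0.51). Sox2, at 0 to 103 reads a library, was not tested.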
